A study of Mus musculus with 14 samples.

Results

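The chemokine receptor genes on mouse chromosome 9 around *Ccr2* were described in RNA sequencing of colonic macrophages from mice lacking *Il10ra*, *Ccr2*, both or neither. The 8 genes were taken by name, as the rows CCR1, CCR2, CCR3, CCRL2, CCR9, CXCR6, XCR1 and, also listed in capitals, 2010315B03Rik of a count table of 24982 genes. Their positions were checked in GENCODE vM21 (GRCm38, the same coordinates as mm10). In that annotation 7 of the 8 genes started within 2 Mb of the start of *Ccr2*. *Ccrl2* did not. It lay 13.05 Mb closer to the centromere on the same chromosome, so it belongs to the group by its receptor family and not by its neighbourhood. *2010315B03Rik* lay in the neighbourhood, but its name gives no receptor.

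The question of the study was how the loss of CCR2 changes the colitis and the colonic macrophages that follow from the loss of the interleukin-10 receptor. All mice were 5 weeks old, of the C57BL/6 background and carried *Cdcs1*, a locus that makes that strain susceptible to colitis. The 5 WT mice (mice 4, 5, 10, 11 and 13) carried *Cdcs1* alone according to the labels. The 4 IL10RAKO mice (mice 1, 2, 7 and 8) were also *Il10ra* -/-, the 4 DKO mice (mice 3, 9, 12 and 14) were *Il10ra* -/- and *Ccr2* -/-, and the 1 CCR2KO mouse (mouse 6) was *Ccr2* -/- alone. The *Ccr2* -/- allele came from the B6.129S4-Ccr2 tm1Ifc line, and both null alleles were present in every cell of the mouse, so no difference below is tied to their loss in macrophages. Each library was made from 1 mouse, from live cells sorted as CD45+, Ly6G-, CD103-, CD64+, CD11b+, MHCII+ and Ly6C-, and held 12153000 to 21216468 reads on genes. In sorted populations of this kind, fewer cells of a type and less RNA per cell cannot be told apart. Tests between genotypes used 12 libraries, because the authors' table of normalised counts held those 12 and lacked WT mouse 11 and the CCR2KO mouse. For each of the 8 genes the values of these 2 libraries are given beside the others.

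Chemokine receptors are receptors with 7 membrane passes, coupled to G proteins, that steer leukocytes along gradients of small secreted chemokines. Many of the receptors for inflammatory CC chemokines sit side by side in the genome and share ligands. CCR2 is the receptor by which Ly6C-high monocytes leave the bone marrow and enter the inflamed gut, where they mature into macrophages, and interleukin-10 acting through STAT3 restrains these macrophages in the healthy colon.

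From the centromere outwards, *Ccr9* (chromosome 9, 123678439 to 123784330, plus strand), *Cxcr6* (123806475 to 123811760, plus), *Xcr1* (123852315 to 123862029, minus), *Ccr1* (123962124 to 123968692, minus), *Ccr3* (124021972 to 124031689, plus), *Ccr2* (124101950 to 124113557, plus) and *2010315B03Rik* (124291804 to 124312696, minus) followed each other on GRCm38. *Ccrl2* ran from 111054486 to 111057519 on the minus strand. All 8 were annotated as protein-coding. *Cxcr6* lay inside *Fyco1* on the opposite strand and shared no exon base with it. *Ccr9* spanned *Lztfl1*, also without a shared exon base, but 18.8% of its exon bases were shared with a further annotated gene, and 19.3% of its stretches of 75 bases also occurred in 2 other genes. Counts for *Ccr9* are therefore less certain. The same share was 1.16% for *Ccr2*, 0.411% for *Xcr1* and 0 for the other 5 genes.

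The upstream sequences of 3 members are shown because each stands for a different pattern among the genes that passed, leaving out the targeted *Ccr2*: *Ccr1* was higher in IL10RAKO mice, *Ccrl2* in IL10RAKO and DKO mice, and *2010315B03Rik* in DKO mice. Each line gives the 250 bases before a RefSeq start (GRCm38.p6), read 5′ to 3′ on the gene's own strand. The windows are chr9:123968693-123968942, chr9:111057519-111057768 and chr9:124312695-124312944. *Ccrl2* has further RefSeq starts, whose windows (chr9:111057271-111057520 and chr9:111057245-111057494) were searched but are not shown. Capitals mark a match to 1 of 3 motifs searched on both strands: TTCNNNGAA (STAT), TGANTCA (AP-1) and GAGGAA (the core bound by PU.1, a macrophage factor).
Ccr1: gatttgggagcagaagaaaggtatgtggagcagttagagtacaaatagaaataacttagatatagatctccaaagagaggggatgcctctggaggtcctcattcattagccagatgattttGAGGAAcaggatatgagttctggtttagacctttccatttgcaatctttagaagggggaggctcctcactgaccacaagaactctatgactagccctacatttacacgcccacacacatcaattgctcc
Ccrl2: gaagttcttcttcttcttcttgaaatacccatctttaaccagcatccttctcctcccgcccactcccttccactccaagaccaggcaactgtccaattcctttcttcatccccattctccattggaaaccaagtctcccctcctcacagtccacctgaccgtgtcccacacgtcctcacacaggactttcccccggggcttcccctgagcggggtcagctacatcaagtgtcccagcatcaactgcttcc
2010315B03Rik: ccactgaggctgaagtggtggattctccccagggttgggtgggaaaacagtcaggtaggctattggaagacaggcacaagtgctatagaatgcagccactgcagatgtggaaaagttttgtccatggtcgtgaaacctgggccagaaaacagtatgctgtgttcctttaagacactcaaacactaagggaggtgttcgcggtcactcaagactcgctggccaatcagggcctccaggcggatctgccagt
The only match in these 3 windows was 1 PU.1 core in *Ccr1*. Over the windows of all 8 genes, *Ccr3* also held a PU.1 core, beside 1 AP-1 match, and the remaining genes held none of the 3 motifs. Of 32851 RefSeq windows of the same length, 23.3% held the PU.1 core, 7.02% the STAT letters and 6.75% the AP-1 letters. The PU.1 core was thus in 2 of the 8 genes and the AP-1 letters in 1, and nothing is drawn from matches in so few windows.

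The targeted genes were read first. *Il10ra* (listed as IL10RA), the ligand-binding chain of the receptor, lies on the same chromosome, 78.85 Mb from *Ccr2*. It was at 284 ± 70.1 CPM, the read count scaled to the normalised library size, in the 4 tested WT mice (mean ± SD here and below, n = 4), at 7.41 ± 2.67 CPM in IL10RAKO mice and at 5.31 ± 2.12 CPM in DKO mice. The CCR2KO mouse had 181.9 CPM and WT mouse 11 had 307 CPM. No library went against its label for *Il10ra*.

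*Ccr2* itself was at 561, 595, 702 and 514 CPM in WT mice 4, 5, 10 and 13 and at 759 CPM in WT mouse 11. IL10RAKO mice 1, 2, 7 and 8 had 627, 361, 379.9 and 535 CPM. DKO mice 3, 9, 12 and 14 had 3.92, 5.79, 6.68 and 6.28 CPM, and the CCR2KO mouse had 4.30 CPM. The *Ccr2* -/- libraries thus lay far below all others but not at 0, with 71 to 127 reads in the DKO mice and 87 reads in the CCR2KO mouse. IL10RAKO and WT values overlapped, with a log2 fold change of -0.32 (95% confidence interval -0.76 to 0.12, edgeR adjusted p = 0.328). Here and below, adjusted p comes from edgeR's quasi-likelihood test with Benjamini-Hochberg adjustment over all 13136 genes tested. Against WT, the DKO change was -6.71 (standard error 0.266).

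All 8 genes had enough reads to be tested. In IL10RAKO against WT macrophages 3 of the 8 rose and none fell, while 15.8% of all genes tested passed in that comparison. In DKO against WT 2 rose and 1 fell (*Ccr2*), beside 18.5% of all genes. In DKO against IL10RAKO 1 rose and 1 fell (*Ccr2*), beside 0.0457% of all genes, which was 6 genes in all. The median log2 fold change over the 8 genes was 0.63, 1.12 and -0.55 in these comparisons, and -0.07, -0.06 and -0.01 over all genes tested. *Ccr2* was targeted in the DKO mice, so its fall in both comparisons with DKO mice was given by the genotype. It is included in the counts and medians of the 8 genes. The comparisons share their libraries, so the counts of genes that passed are not independent of each other.

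**Figure D1:**
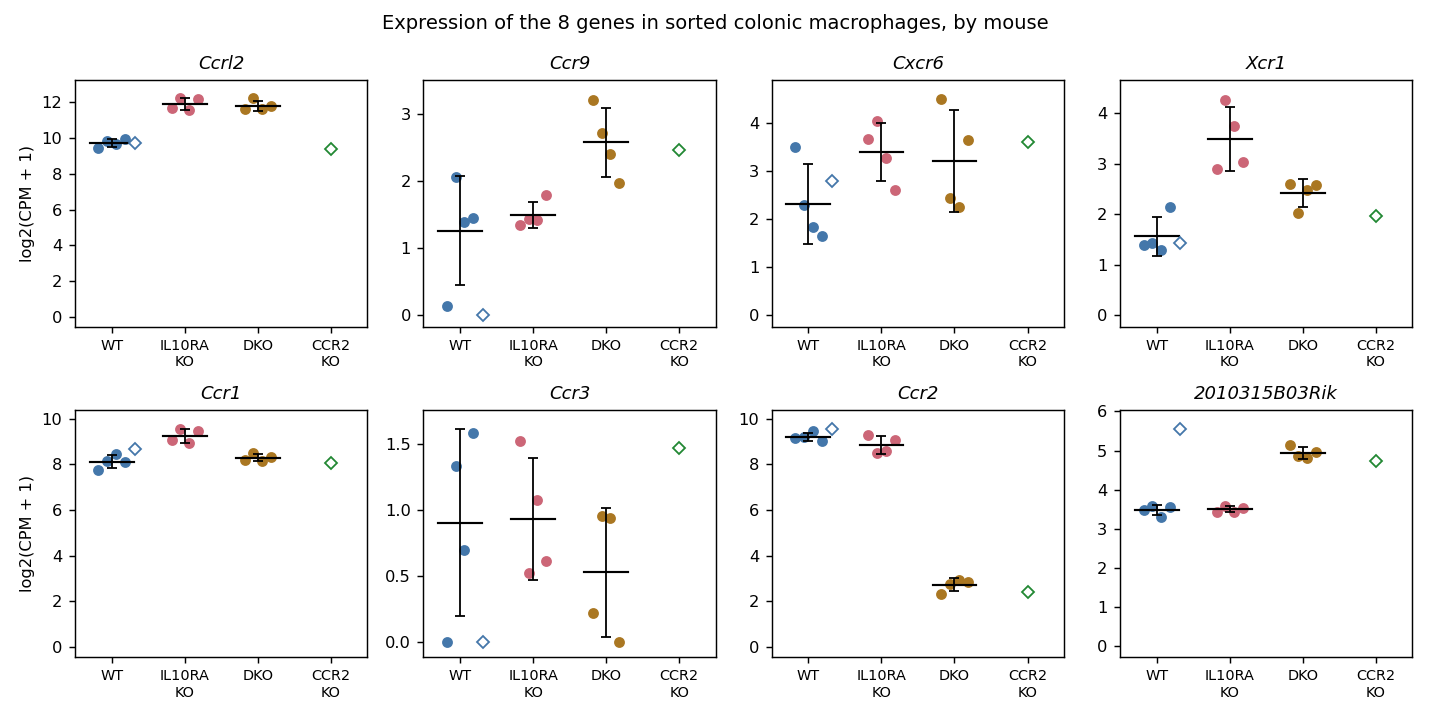
Expression of the 8 genes by mouse, as log2(CPM + 1) on the vertical axis, with genotype on the horizontal axis. Filled points are the 12 tested libraries with their mean and SD in black, open diamonds are WT mouse 11 and the CCR2KO mouse, and the vertical scale differs between panels. *Ccrl2* separates WT from both *Il10ra* -/- genotypes, *Ccr1* is highest in IL10RAKO mice, and *2010315B03Rik* is high in DKO mice, the CCR2KO mouse and WT mouse 11.

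*Ccrl2* (listed as CCRL2), an atypical receptor that binds chemerin and presents it to other cells without signalling itself, was the most abundant of the 8 per kilobase of exon in every genotype. It was at 687, 908, 820.0 and 973 CPM in WT mice 4, 5, 10 and 13. In IL10RAKO mice 1, 2, 7 and 8 it reached 3302, 4844, 3114 and 4764 CPM. In DKO mice 3, 9, 12 and 14 it reached 3164, 4790.3, 3168 and 3622 CPM. Every *Il10ra* -/- mouse lay above every WT mouse by a wide margin, and the IL10RAKO and DKO ranges lay on top of each other. *Ccrl2* rose with a log2 fold change of 2.24 (SE 0.206, edgeR adjusted p = 6.05e-06) in IL10RAKO and of 2.12 (SE 0.205, edgeR adjusted p = 8.53e-06) in DKO mice. Between DKO and IL10RAKO mice the difference was -0.12 (95% confidence interval -0.54 to 0.30). The libraries with functional *Il10ra* outside the test, the CCR2KO mouse at 666 CPM and WT mouse 11 at 834 CPM, were at or near the WT range.

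*Ccr1* (listed as CCR1), a receptor for CCL3, CCL5, CCL6 and CCL9 on monocytes, macrophages and neutrophils, was at 217, 287, 351 and 271 CPM in WT mice 4, 5, 10 and 13. It was at 530.1, 761, 497 and 711 CPM in IL10RAKO mice 1, 2, 7 and 8. DKO mice 3, 9, 12 and 14 had 294, 359, 282 and 317 CPM. The IL10RAKO mice stood above all other libraries, and DKO and WT values overlapped. WT mouse 11 had 405 CPM, above the other WT mice but below every IL10RAKO mouse, and the CCR2KO mouse had 269.5 CPM, within the WT range. *Ccr1* rose in IL10RAKO against WT mice with a log2 fold change of 1.15 (SE 0.185, edgeR adjusted p = 6.79e-04). In DKO against WT mice the change was 0.15 (95% confidence interval -0.24 to 0.54). Between DKO and IL10RAKO mice it was -0.998 (SE 0.184). Although no DKO mouse reached the lowest IL10RAKO mouse, this did not pass (edgeR adjusted p = 0.125, rank 9 by p of all genes). DESeq2 gave -0.99 for the same difference, with an adjusted p of 3.64e-04.

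Neutrophil and monocyte markers were read beside *Ccrl2* and *Ccr1*. The 8 neutrophil markers, led by *Csf3r*, summed to 73.5 to 117 CPM in the tested WT mice, 133 to 305 CPM in IL10RAKO mice and 160.4 to 265 CPM in DKO mice, with 6 or 7 of them at 0 in each tested WT mouse. The 8 monocyte markers summed to 567 to 737 CPM, 473 to 1177 CPM and 528 to 759.9 CPM in the same order. Within that list members moved in opposite directions, since *F13a1* fell and *Ly6c2* and *Plac8* rose in both comparisons with WT. IL10RAKO mouse 2 had the highest of both sums among the tested libraries, as it had for *Ccr1* and *Ccrl2*. The neutrophil sums of DKO mice were above those of all tested WT mice, as for *Ccrl2*, whereas *Ccr1* of DKO mice overlapped WT. The sort took Ly6G- and Ly6C- cells, and the part of neutrophils or monocytes in either gene was not tested.

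*Ccr3* (listed as CCR3), the eotaxin receptor of eosinophils, was close to the limit of detection. It had 0, 26, 15 and 30 reads in WT mice 4, 5, 10 and 13, 7 to 27 reads in IL10RAKO mice and 0 to 15 reads in DKO mice. A count of 0 allowed up to 0.143 CPM in WT mouse 4 and 0.148 CPM in DKO mouse 14. The CCR2KO mouse had 36 reads and WT mouse 11 had none, which allowed up to 0.220 CPM. No comparison passed, and the 95% confidence interval of the change between IL10RAKO and WT mice ran from -2.49 to 2.38, so differences of several-fold were not detectable at this depth. The list of 10 eosinophil and mast cell markers summed to 14.1 to 47.2 CPM in the tested WT mice, 75.6 to 102 CPM in IL10RAKO mice and 81.4 to 124 CPM in DKO mice, mostly from *Kit*, and 3 to 7 of its genes were at 0 in each tested library.

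*Xcr1* (listed as XCR1), the receptor for XCL1 that marks type 1 conventional dendritic cells, was scarce but differed between genotypes. It was at 1.62, 1.70, 1.45 and 3.40 CPM in WT mice 4, 5, 10 and 13. IL10RAKO mice 1, 2, 7 and 8 had 6.47, 18.3, 12.4 and 7.20 CPM, from 93 to 294 reads. DKO mice 3, 9, 12 and 14 had 5.08, 3.05, 4.57 and 4.99 CPM. IL10RAKO values lay above all DKO values, and DKO values lay above those of all WT mice but mouse 13. The CCR2KO mouse had 2.91 CPM and WT mouse 11 had 1.69 CPM, both within the WT range. *Xcr1* rose in IL10RAKO against WT mice with a log2 fold change of 2.45 (SE 0.412, edgeR adjusted p = 9.88e-04). The change in DKO against WT mice was 1.12 (SE 0.401, edgeR adjusted p = 0.0677), and between DKO and IL10RAKO mice it was -1.33 (SE 0.394, edgeR adjusted p = 1.00), and neither passed. The former passed with DESeq2 (adjusted p = 0.0374) and in edgeR without WT mouse 13 (adjusted p = 0.0239).

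Markers of type 1 dendritic cells, a list of 8 genes without *Xcr1*, were read beside it. They summed to 193 to 301 CPM in the tested WT mice. The sums were 192.6 to 284 CPM in IL10RAKO mice and 224 to 238 CPM in DKO mice. *Cadm1* had the highest mean of the list in each tested genotype, but not the highest value in every mouse. The sum did not follow *Xcr1*, since IL10RAKO mouse 2 had the highest *Xcr1* and the lowest sum of its group. Beside 15.8% (IL10RAKO) and 18.5% (DKO) of all genes tested, 1 of the 8 rose and 1 fell in each comparison with WT. The former was *Clec9a*, a receptor for dead cells on these dendritic cells (log2 fold change 1.83 in IL10RAKO and 1.86 in DKO mice), and the latter *Batf3*, a transcription factor they need (-0.66 and -1.42). No gene of the list passed between DKO and IL10RAKO mice with edgeR or DESeq2 (1 at an unadjusted p under 0.05 in edgeR). The sort took CD103- and CD64+ cells, and the part of type 1 dendritic cells in the *Xcr1* values was not tested.

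*Cxcr6* (listed as CXCR6), the receptor for CXCL16 on T cells, NKT cells and innate lymphoid cells, varied widely within each genotype. It was at 10.4, 3.93, 2.61 and 2.13 CPM in WT mice 4, 5, 10 and 13. It was at 11.8, 15.4, 8.65 and 5.15 CPM in IL10RAKO mice 1, 2, 7 and 8. DKO mice 3, 9, 12 and 14 spanned the widest range, at 21.6, 4.48, 3.80 and 11.6 CPM. The CCR2KO mouse had 11.3 CPM, just above the WT range, and WT mouse 11 had 5.94 CPM. All 3 genotypes overlapped and no comparison passed, with log2 fold changes of 1.10 (SE 0.595) and 1.12 (SE 0.594) against WT and 0.02 (SE 0.584) between DKO and IL10RAKO mice. WT mouse 4 decided the first pair. Without it both passed in edgeR, at 1.83 (adjusted p = 0.0421) and 1.85 (adjusted p = 0.0362). The list of 14 T and NK cell markers was led by *Cd4* in the mean of each tested genotype. The paper cites earlier work that found Tim4+ macrophages bearing CD4 in the Ly6C-, MHCII+ fraction. *Cd4*, and sums that rest on it, are thus not specific to T cells here. It summed to 181 to 242 CPM in the tested WT mice, and to 111 to 217 CPM in IL10RAKO and 116 to 228 CPM in DKO mice. Its highest sums in the WT and DKO mice were in WT mouse 4 and DKO mouse 3, the mice with the highest *Cxcr6* of their genotypes, whereas the highest sum of the IL10RAKO mice was in mouse 7, which was not highest in *Cxcr6*. *Cd3e* stayed at 0.132 to 4.15 CPM in the tested libraries. The sort took CD64+ and CD11b+ cells, and the part of T cells in *Cxcr6* was not tested.

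*Ccr9* (listed as CCR9), the receptor for CCL25 that brings lymphocytes and plasmacytoid dendritic cells to the intestine, was at 0.0955, 3.17, 1.62 and 1.73 CPM in WT mice 4, 5, 10 and 13. IL10RAKO mice 1, 2, 7 and 8 had 1.53, 1.68, 1.67 and 2.44 CPM. DKO mice 3, 9, 12 and 14 had 8.23, 5.60, 4.29 and 2.92 CPM. Each DKO mouse lay above each IL10RAKO mouse, but 1 WT mouse lay within the DKO range. No comparison passed in the edgeR fit used throughout, with a log2 fold change of 1.67 (SE 0.667, adjusted p = 0.0993) against WT and of 1.52 (SE 0.665, adjusted p = 1.00) against IL10RAKO mice. The former passed with DESeq2 (adjusted p = 0.0432) and in edgeR with bias-adjusted deviance (1.72, adjusted p = 0.0222). The CCR2KO mouse had 4.49 CPM and WT mouse 11 had none, which allowed up to 0.220 CPM. DKO mouse 3, highest in *Ccr9*, also had the highest sum of the 8 plasma and B cell markers (2362 CPM) and of the 6 plasmacytoid dendritic cell markers (272 CPM) among the 12 tested libraries. The sums did not follow *Ccr9* elsewhere. WT mouse 4 had the next highest of both (1968 and 257 CPM) and the lowest *Ccr9*, and DKO mice 9, 12 and 14 had plasmacytoid sums of 106 to 121 CPM, below the 210.2 to 257 CPM of the tested WT mice. The sort took CD64+ and CD11b+ cells, and the part of these other cell types in *Ccr9* was not tested.

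*2010315B03Rik*, a protein-coding gene known by its clone name, kept to a narrow band within each tested genotype. It was at 10.1, 11.1, 8.78 and 10.9 CPM in WT mice 4, 5, 10 and 13. It was at 9.74, 11.0, 9.86 and 10.6 CPM in IL10RAKO mice 1, 2, 7 and 8. DKO mice 3, 9, 12 and 14 had 34.2, 27.95, 26.8 and 30.2 CPM. No DKO mouse came near the range of the other 2 genotypes. The CCR2KO mouse, at 25.6 CPM from 519 reads, stood just below the DKO mice and above all of the tested WT and IL10RAKO mice. *2010315B03Rik* rose in DKO mice with a log2 fold change of 1.55 (SE 0.168, edgeR adjusted p = 2.42e-05) against WT and of 1.53 (SE 0.168, edgeR adjusted p = 8.50e-04) against IL10RAKO mice, and the IL10RAKO to WT difference was 0.02 (95% confidence interval -0.34 to 0.37).

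WT mouse 11 set a limit on that result. It had 45.7 CPM of *2010315B03Rik* from 624 reads, more than any other library, together with *Ccr2* at 759 CPM. With that library in the fit, the change against WT was 0.79 (edgeR adjusted p = 0.245) and the change against IL10RAKO mice stayed at 1.53 but no longer passed (edgeR adjusted p = 1.00). The library stood apart in other ways. Reads fell on 11670 genes, the fewest of the 14 libraries, the 6 epithelial markers summed to 2497 CPM against 37.3 to 982 CPM in the 12 tested libraries, and 5 of the 8 markers of type 1 dendritic cells were at 0.

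**Figure D2:**
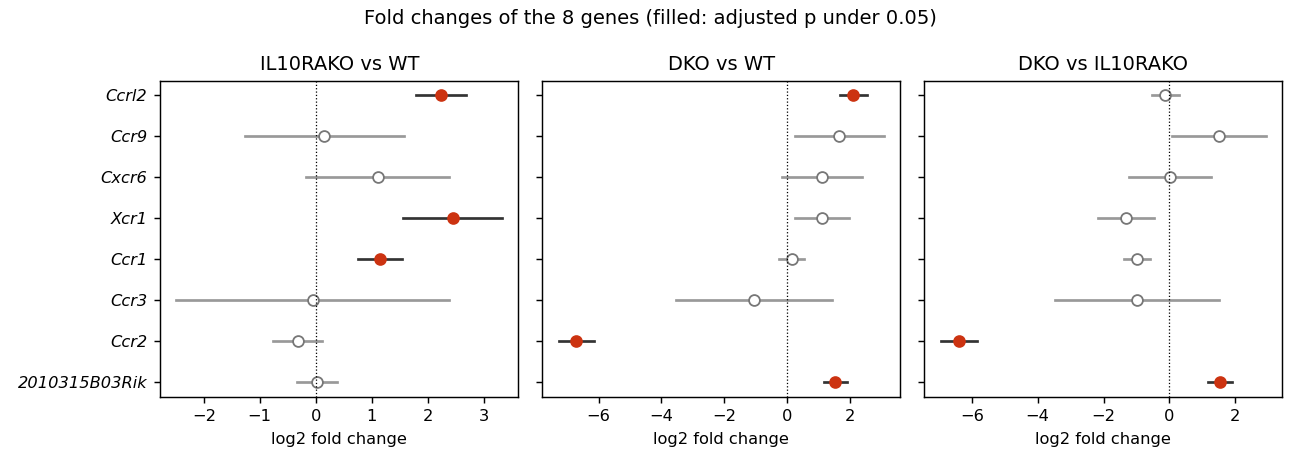
Log2 fold changes of the 8 genes from the edgeR fit of 12 libraries, 1 panel per comparison. Points are estimates, lines are 95% confidence intervals, and filled red points have an adjusted p under 0.05. Intervals are narrow for *2010315B03Rik*, *Ccr1* and *Ccrl2* and widest for *Ccr3*, and the panel of DKO against IL10RAKO mice holds 2 filled points, *Ccr2* at -6.39 and *2010315B03Rik* at 1.53.

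Ranked by CPM per kilobase of exon, the order in the tested WT mice was *Ccrl2* (326), *Ccr1* (99.4), *Ccr2* (87.7), *2010315B03Rik* (2.61), *Cxcr6* (2.46), *Xcr1* (0.459), *Ccr3* (0.317) and *Ccr9* (0.161). The ranges of *Ccr1* and *Ccr2*, of *2010315B03Rik* and *Cxcr6*, and of the last 3 overlapped, so these neighbours did not differ beyond their spread. In IL10RAKO mice the first 3 kept that order at 1542, 220.5 and 70.4, now without overlap. In DKO mice *2010315B03Rik* took the third place by its mean of 7.61, but its range overlapped that of *Cxcr6*. *Ccr2*, at 0.838, fell among *Xcr1*, *Ccr9* and *Ccr3*. Only *Ccrl2*, *Ccr1* and *Ccr2* thus had a mean above 10 CPM per kilobase in any tested genotype, and the other receptors were rare transcripts.

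The mice of a genotype did not rank alike across the group. Among IL10RAKO mice, mouse 2 had the highest *Ccr1*, *Ccrl2*, *Xcr1* and *Cxcr6* and the lowest *Ccr2*. Among DKO mice, mouse 9 was highest in *Ccr1* and *Ccrl2* and lowest in *Xcr1*, while mouse 3 was highest in *Ccr9*, *Cxcr6*, *Xcr1* and *2010315B03Rik*.

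The genes around the cluster were followed to see how far such differences reached. Of 41 genes of the count table that started within 2 Mb of *Ccr2*, members included, 30 could be tested, and 27 of these did not pass between DKO and IL10RAKO mice. *Clec3b*, which encodes tetranectin, fell in both comparisons with WT (log2 fold change -4.23 in IL10RAKO and -5.93 in DKO mice), from 1.04 to 5.57 CPM in the tested WT mice to 0.348 CPM or less. *Ano10* (-0.65, edgeR adjusted p = 0.0496) and *Tmem158* (-1.89, edgeR adjusted p = 0.0172) fell in IL10RAKO against WT mice. *Sacm1l*, a lipid phosphatase gene (0.56), and *Lztfl1*, whose product acts in trafficking to cilia (0.79), rose in DKO against WT mice. *Lars2*, the mitochondrial leucyl-tRNA synthetase gene, fell in DKO against WT mice (-2.13, edgeR adjusted p = 0.0282). Its values ranged from 291 to 1725 CPM in WT, 118 to 1576 CPM in IL10RAKO and 147 to 327 CPM in DKO mice, a wide spread with overlapping ranges. Of these 6 neighbours none passed between DKO and IL10RAKO mice with edgeR or DESeq2, and 1 had an unadjusted p under 0.05 in edgeR. In these cells, sorted as CD45+, fibroblast markers moved with *Clec3b*. All 6 of that list fell in both comparisons, their sum was 294 to 577 CPM in the tested WT mice and 15.0 to 67.0 CPM in the *Il10ra* -/- mice, and their part in *Clec3b* was not tested.

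**Figure D3:**
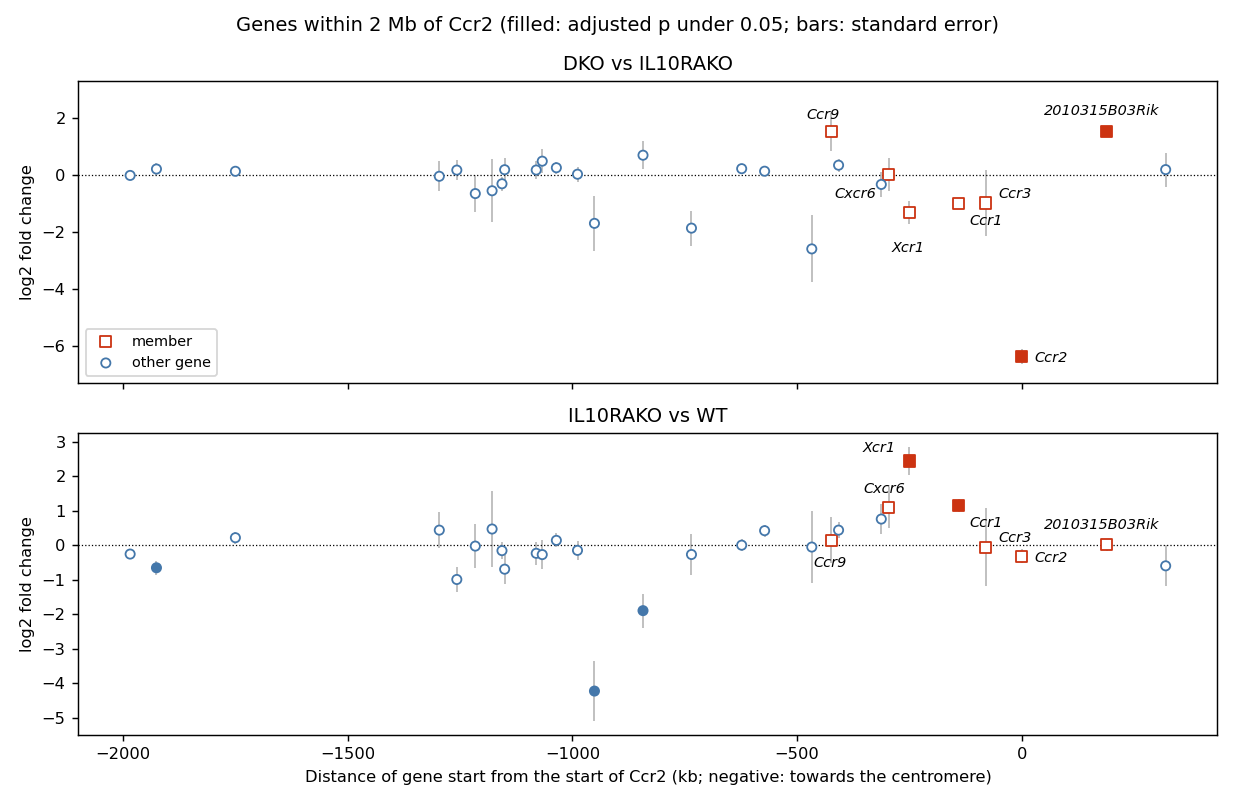
Log2 fold changes of 29 tested genes within 2 Mb of *Ccr2* by distance of the gene start from that of *Ccr2*, in kb, for DKO against IL10RAKO mice (top) and IL10RAKO against WT mice (bottom). Red squares are members, blue circles other genes, bars are standard errors, and filled symbols have an adjusted p under 0.05. In the top panel *Ccr2* at -6.39 and *2010315B03Rik* at 1.53, 189.9 kb apart, are filled, and in the bottom panel *Xcr1* and *Ccr1* are filled among the members.

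*Ccr1l1*, a relative of *Ccr1* in the same stretch, had reads in too few libraries to pass the filter and was not tested. It is named here after its values were seen. It had 64, 54, 42 and 0 reads in WT mice 4, 5, 10 and 13, 0 to 7 reads in IL10RAKO mice, 0 to 2 reads in DKO mice, and none in the CCR2KO mouse or WT mouse 11.

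The ligands of these receptors were read from the same libraries, as a list of 15 genes that could all be tested. In IL10RAKO against WT mice 2 rose, 7 fell and 6 did not pass, while 15.8% of all genes tested passed. In DKO against WT mice 2 rose, 8 fell and 5 did not pass, while 18.5% of all genes tested passed. The median log2 fold change over the list was -0.78 and -1.63, against -0.07 and -0.06 over all genes tested. The genes that rose were the same in both, *Ccl5*, a ligand of CCR1 and CCR3, and *Cxcl16*, the ligand of CXCR6. *Ccl5* rose from 15.7 to 23.5 CPM in the tested WT mice to 270.2 to 894 CPM in IL10RAKO mice (log2 fold change 4.84) and 374 to 515 CPM in DKO mice (4.43). *Cxcl16* was abundant throughout and rose modestly, by 0.86 in IL10RAKO and 0.77 in DKO mice.

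Ligands of CCR2 did not all move alike. *Ccl2*, the main one, was at 218 ± 85.0 CPM in the tested WT, 51.6 ± 29.7 CPM in IL10RAKO and 19.1 ± 4.82 CPM in DKO mice, with log2 fold changes of -2.08 and -3.51 against WT. *Ccl7*, which also binds CCR1 and CCR3, was at 252 ± 100.3, 41.8 ± 27.3 and 16.3 ± 4.37 CPM (-2.59 and -3.95). DKO values of both were lower than IL10RAKO means, but the difference passed for neither in edgeR (adjusted p = 0.705 for *Ccl2* and 1.00 for *Ccl7*). *Ccl12*, a further CCR2 ligand, fell as well (-1.98 and -3.02), whereas *Ccl8* did not pass (24.4 to 57.4 CPM in IL10RAKO and 45.3 to 70.7 CPM in DKO mice, beside 24.9 to 59.5 CPM in the tested WT mice). *Rarres2*, which encodes the chemerin bound by CCRL2, fell by 1.44 and 1.63 on the log2 scale in the mice in which *Ccrl2* rose. *Xcl1* and *Ccl25*, the ligands of XCR1 and CCR9, stayed below 4 CPM in every tested library, and neither passed. Fibroblasts also make several of these ligands, and the 6 fibroblast markers, described above, fell in the same comparisons, with medians on the log2 scale of -3.83 (IL10RAKO) and -3.76 (DKO). The sort took CD45+ cells, and the part of fibroblasts in the lower ligand values was not tested.

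*Ccl24*, the eotaxin-2 gene whose product binds CCR3, was the only ligand that passed between DKO and IL10RAKO mice in edgeR, and DESeq2 called 4, adding *Ccl2*, *Ccl6* and *Ccl9*. It was at 20.5 to 48.7 CPM in the tested WT mice, 1.11 to 2.51 CPM in IL10RAKO mice and 7.40 to 10.5 CPM in DKO mice, with no overlap between any pair of genotypes. The CCR2KO mouse had 17.8 CPM and WT mouse 11 had 29.5 CPM. The log2 fold change was -4.14 in IL10RAKO and -1.80 in DKO against WT mice, and 2.33 (SE 0.319, edgeR adjusted p = 0.00906) in DKO against IL10RAKO mice.

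**Figure D4:**
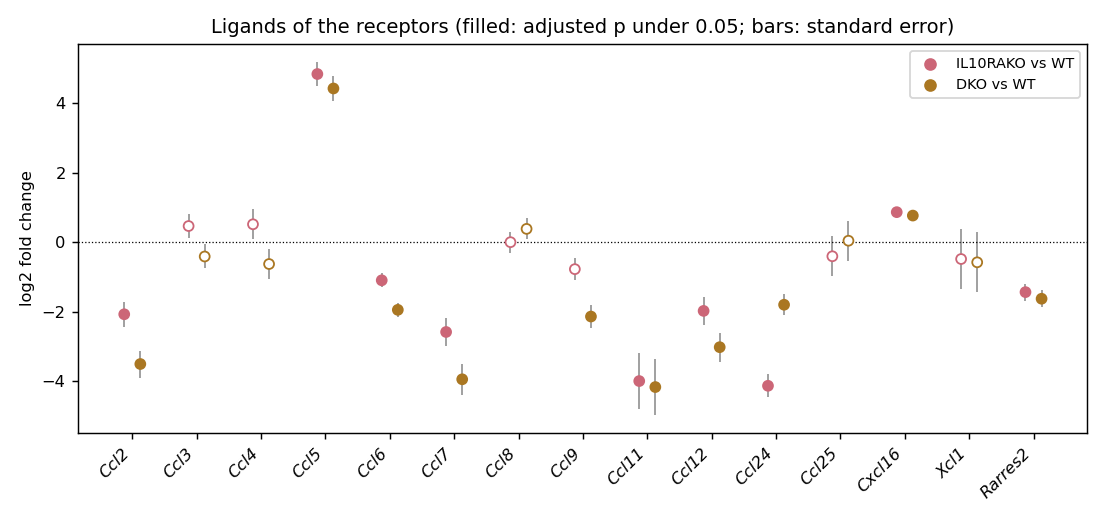
Log2 fold changes against WT of the 15 ligand genes of the receptors, for IL10RAKO mice and DKO mice. Bars are standard errors and filled points have an adjusted p under 0.05. *Ccl5* and *Cxcl16* lie above 0 in both genotypes, and *Ccl2*, *Ccl7*, *Ccl12*, *Ccl11*, *Ccl24*, *Ccl6* and *Rarres2* are filled below 0 in both.

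Chemokine receptors encoded outside the 2 Mb window served for comparison. They are not all unlinked to *Ccr2*, since some lie on chromosome 9 as well. *Ackr2* (-2204 kb from the start of *Ccr2*), *Ccr8* (-4010 kb), *Cx3cr1* (-4200 kb) and *Ccr4* (-9612 kb) start closer to it than *Ccrl2* does. Of 16 such genes 15 could be tested. In IL10RAKO against WT mice 2 rose and 2 fell, while 15.8% of all genes tested passed. In DKO against WT mice 2 rose and 3 fell, while 18.5% of all genes tested passed. Between DKO and IL10RAKO mice none passed with edgeR or DESeq2, beside 0.0457% of all genes in edgeR. None of the 15 was at an unadjusted p under 0.05 there in edgeR. *Ccr7*, the receptor that leads dendritic cells to lymph nodes, rose from 194 to 921 CPM in the tested WT mice to 1288 to 1760 CPM in IL10RAKO mice (log2 fold change 1.60) and 973 to 1706 CPM in DKO mice (1.42). *Cxcr2*, a neutrophil receptor, rose by 4.02 and 4.82 on the log2 scale but did not exceed 2.32 CPM in any tested library. *Ackr3*, a scavenger of CXCL12, fell in both (-1.87 and -1.97), as did *Ackr1* (-5.66 and -3.65), an atypical receptor of venules and red cells. *Ackr1* was at 0 to 13.9 CPM in the tested WT mice, at 0 in both WT mouse 11 and the CCR2KO mouse, and at up to 0.209 CPM in IL10RAKO and 0.703 CPM in DKO mice, so its ranges overlapped. *Cx3cr1*, the fractalkine receptor of mature gut macrophages, fell in DKO against WT mice (-1.21, edgeR adjusted p = 0.0162) and was at -0.74 (adjusted p = 0.135) in IL10RAKO mice.

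The sorted cells were checked against their markers. All 10 macrophage markers had reads in every library, and *H2-Ab1*, an MHC class II gene used in the sort, was the most abundant of them. The list had 2 genes higher in IL10RAKO (*Fcgr1* and *H2-Ab1*), and in DKO mice *Mertk* was higher and *Adgre1* lower than in WT. Of 8 monocyte markers, *Ly6c2* (log2 fold change 4.06 in IL10RAKO and 3.65 in DKO mice) and *Plac8* (2.41 and 1.98) rose and *F13a1* (-4.20 and -5.09) fell. Of the 8 neutrophil markers 4 could be tested, and all 4 rose in both genotypes. In IL10RAKO mice 3 of the 4 were high in mouse 2 alone. *S100a9* was at 1.53, 40.8, 0.506 and 2.38 CPM in IL10RAKO mice 1, 2, 7 and 8, and *Ngp* at 0.278, 10.2, 0 and 0 CPM. Without mouse 2 the log2 fold change of *S100a8* against WT went from 6.27 to 3.82 (edgeR adjusted p = 0.0285) and that of *Ngp* from 5.84 to 1.02 (edgeR adjusted p = 0.674). The most abundant, *Csf3r*, rose by 1.18 and 1.05, and *Ly6g*, which defines these cells, did not exceed 0.747 CPM in any library. Of the plasmacytoid dendritic cell list 3 of 5 tested genes fell in both comparisons with WT (median over the 5 of -2.49 in IL10RAKO and -1.09 in DKO mice), among them *Siglech* (-3.72 and -4.77), a surface lectin of these cells. Of the T and NK cell list 1 of 13 tested genes rose and 1 fell in each comparison with WT. The gene that fell was *Cd4* in both (-0.84 and -0.90), which is not specific to T cells in this fraction. Of the plasma and B cell list 1 of 8 rose (*Sdc1*, 2.73 and 3.44), and of the eosinophil and mast cell list 1 of 5 (*Kit*, 1.93 and 2.2). Of the 6 epithelial markers none passed with edgeR or DESeq2 (2 at an unadjusted p under 0.05 in IL10RAKO and 0 in DKO mice, edgeR). For comparison, 15.8% (IL10RAKO) and 18.5% (DKO) of all genes tested passed against WT. Of the 73 tested genes of all marker lists none passed between DKO and IL10RAKO mice in edgeR. Only 6 of all 13136 genes (0.0457%) passed there, so a count of 0 among 73 genes is uninformative. In edgeR 6 of the 73 had an unadjusted p under 0.05, beside 388 of the 13136, and DESeq2 called 1, *F13a1*. Without IL10RAKO mouse 2 the neutrophil gene *Ngp*, at 7.17 to 20.98 CPM in DKO mice, also passed in edgeR (adjusted p = 0.0362).

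For each member the 3 genes with the most similar pattern were found by Pearson's r of log2 CPM over the 14 libraries. These share their genotypes, so r can follow the steps between groups, and it can also follow a single library. *Ccrl2* was most like *Tlr2*, a receptor for bacterial lipoproteins (r = 0.989), *Inhba*, a subunit of activin (0.985), and *Sgk1*, a kinase gene (0.984). *Inhba* rose from a mean of 4.87 CPM in the tested WT to 701 CPM in IL10RAKO and 847 CPM in DKO mice, and was at 4.54 CPM in the CCR2KO mouse. *Xcr1* was most like *Bcl2a1d* (0.902), *Nabp1* (0.898) and the interferon-induced *Isg15* (0.888). *Ccr1* was most like *Gm14005* (0.850), *Gm6377* (0.838) and *Gng5* (0.827), and *Ccr2* like *BC064078* (0.871), *Rab7b* (0.845) and *Mob3c* (0.840). For the scarce genes the nearest were *Brip1*, *Gins1* and *Ccnf* for *Ccr9* (0.914 to 0.928), *Aloxe3*, *Xlr4c* and *Ttc21a* for *Ccr3* (0.848 to 0.880) and *Gm15511*, *Erg28* and *Cops4* for *Cxcr6* (0.809 to 0.884). In WT mouse 11 *Ccr9*, *Ccr3*, *Brip1*, *Ccnf*, *Aloxe3* and *Ttc21a* were at 0, and *Gins1* and *Xlr4c* were at 0.0733 CPM. The part of that library in these r was not tested. *2010315B03Rik* was nearest to *Aldh1l1* (0.811), *Cd180* (0.807) and *LOC102631993* (0.806). Of these, *Aldh1l1* was at 3.92, 6.08 and 11.4 CPM on average in the tested WT, IL10RAKO and DKO mice, at 10.8 CPM in the CCR2KO mouse and at 35.2 CPM in WT mouse 11.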

How the data were processed

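RNA of 14 sorted macrophage libraries was made into cDNA with Smart-seq v4 by the authors, demultiplexed with bcl2fastq 2.20 and aligned to mm10 with STAR 2.5.1b. The authors deposited raw read counts per gene for 14 libraries and a table of edgeR (3.34.0) pseudocounts for 12, normalised values that were handled as a score and used only to find which libraries the authors kept. The annotation and strand of counting are not given in the sources used here. Of 24982 genes, 24498 were matched to GENCODE vM21 by symbol and 43 by an older symbol.

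The members and gene lists were chosen with earlier results of these data known. Counts of the 12 libraries were normalised by TMM and filtered with filterByExpr (minimum count 10), and 3 genotypes were fitted together with edgeR 4.0.16 (quasi-likelihood, legacy deviance, R 4.3.3), a gene passing at an adjusted p under 0.05. CPM of the 2 other libraries used factors set against the 12. Members, *Il10ra*, neighbours that passed, ligands and receptors that passed between DKO and IL10RAKO or had the smallest p against WT, and 3 nearest genes per member were named. A count of 0 was taken to allow 3 reads, which covers counting error only. Pairs of libraries of a genotype differed by more than sampling noise (chi-square per degree of freedom at least 30.9). The fit was tested on simulated data. Alternatives were DESeq2 1.42.0, other scaling and filters, other sets of libraries and leaving out each mouse. Of the genes that passed, 1 is counted but not reported here.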

Additional observations from a re-analysis of the deposited data

Results flagged for a closer look

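The values of each gene were examined within each genotype, with the WT mice taken both as the 4 tested and as all 5, so these groups overlap. In a single group chance alone sets a library apart about 5% of the time. Of 32 groups examined, 3 were flagged. *Xcr1* in WT mouse 13 was at 2.14 on the log2(CPM + 1) scale, against 1.43 in the next WT mouse, which set it apart both among the 4 tested WT mice and among all 5, the same value counted in nested groups. *2010315B03Rik* in WT mouse 11 was at 5.55, against 3.59 in the next of the 5 WT mice.

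The CCR2KO library, alone in its genotype and in no test, exceeded every tested WT mouse for 3 genes. *Ccr9* was at 4.49 CPM (highest tested WT mouse 3.17), *Cxcr6* at 11.3 CPM (highest 10.4) and *2010315B03Rik* at 25.6 CPM (highest 11.1). WT mouse 11, also in no test, had 0, 5.94 and 45.7 CPM, so it exceeded the CCR2KO library for *2010315B03Rik*. With 1 CCR2KO library the differences from the tested WT mice have no replicate check.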

How the results depend on the processing

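With 1 mouse left out, 3 or 4 members were called in each of IL10RAKO and DKO against WT mice. All genes called in IL10RAKO against WT mice were then 1485 to 2554. DESeq2 called 5 members in DKO against WT mice, adding *Ccr9* and *Xcr1*, and the targeted *Ccr2* is 1 of the 5. Over all genes DESeq2 called 3008 of 13100 in that comparison, beside 2424 of 13136 in edgeR. Between DKO and IL10RAKO mice DESeq2 called 24 genes in place of 6, and leaving out 1 mouse gave 4 to 10 (10 without IL10RAKO mouse 2). With WT mouse 11 in the fit 1 member (*Ccr2*) passed there. Library totals without TMM moved the median log2 fold change of all genes to -0.38 (IL10RAKO) and -0.32 (DKO) against WT, and 23.8% and 25.9% of calls were then higher, in place of 55.1% and 50.0%. Relative to that shift, small changes turned sign: *Ccr9* (-0.20) and *2010315B03Rik* (-0.30) in IL10RAKO and *Ccr1* (-0.11) in DKO against WT mice. *Ccr2* then passed in IL10RAKO against WT mice (-0.64, edgeR adjusted p = 0.0379). Other values near 0 also turned. In IL10RAKO against WT mice *2010315B03Rik* was -0.031 with at least 10 reads in every library and -0.74 with WT mouse 11, and *Ccr3* was 0.26 with WT mouse 11 and 0.071 with bias-adjusted deviance. Leaving out 1 mouse gave -0.045 to 0.064 for *2010315B03Rik*, -0.55 to 0.48 for *Ccr3* and -0.24 to 0.68 for *Ccr9* in IL10RAKO against WT mice, and -0.63 to 0.29 for *Cxcr6* between DKO and IL10RAKO mice. The causes were not tested. No paired analysis was possible because each mouse has 1 genotype and the labels pair no mice. Each genotype holds 4 tested mice, and *Ccr3*, *Ccr9* and *Xcr1* rest on few reads, which limits what could be seen for them.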
